A study of Mus musculus with 4 samples.

Results

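*Col1a1*, *Col1a2*, *Col3a1* and *Dcn*, 4 transcripts that are best known from fibroblasts, were examined in sorted ILC3s of the large intestine. They were chosen by gene name among the 2179 genes of the authors' deposited table, and all 4 are listed there. The study compared 2 libraries from mice given α-DR3 (clone 4C12, 1 µg) with 2 libraries from PBS-treated littermates, and the cells were taken on day 3. All mice, the controls included, were Rag1-/- and so lacked mature T and B cells, and all carried 1 GFP reporter allele that marks ILC3s. ILC3s were sorted as Lin-GFP+ cells, and each library came from the pooled cells of several mice, so that 1 library is a pool and not 1 animal. α-DR3 is an agonistic antibody to DR3, the receptor of TL1A. The table holds the authors' mean of each group and no value of a single library, so no SD is given and no test was run on the differences below.

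Type I collagen, a triple helix of the products of *Col1a1* and *Col1a2*, is the main fibrillar collagen of connective tissue. *Col3a1* encodes the chain of type III collagen, which lies beside type I in soft and distensible tissue such as the gut wall. *Dcn* encodes decorin, a small proteoglycan that binds collagen fibrils and regulates their assembly. In the intestine these genes are expressed mainly by fibroblasts and other mesenchymal cells of the lamina propria and submucosa, and lymphoid cells are not known as a source of fibrillar collagen.

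The collagen triple helix needs a glycine at every step of a 3-residue repeat, and this repeat can be read in the coding sequence. In GENCODE M21 transcripts, the longest unbroken run of a glycine codon followed by a pair of other codons was 338 units in *Col1a1*, 339 in *Col1a2* and 344 in *Col3a1*. The 30 codons from the middle of each run are shown 5′ to 3′, with the repeat's glycine codons in capitals, because they show what the 3 collagens share and that their sequences still differ:
Col1a1: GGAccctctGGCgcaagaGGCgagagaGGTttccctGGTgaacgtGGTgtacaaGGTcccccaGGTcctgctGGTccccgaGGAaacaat
Col1a2: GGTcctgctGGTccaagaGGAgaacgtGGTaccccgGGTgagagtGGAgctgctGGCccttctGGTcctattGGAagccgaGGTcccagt
Col3a1: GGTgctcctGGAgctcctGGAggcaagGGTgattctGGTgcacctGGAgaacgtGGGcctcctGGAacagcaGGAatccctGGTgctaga
*Dcn* has no such repeat. It held 21 glycine codons among 354, or 5.93%, against 26.8% in *Col1a1*, 27.8% in *Col1a2* and 28.3% in *Col3a1*. Despite the common repeat, no stretch of 50 bases, the length of the reads, was shared between transcripts of any 2 of the 4 genes. *Col1a1* and *Dcn* also shared none with transcripts of other genes. *Col1a2* shared 9 of its 12590 stretches, and *Col3a1* shared 92 of 9921, all of these with Gm47302, a miRNA gene that lies within its exons. Reads of the 4 genes could thus be told apart nearly throughout.

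The 4 genes lie on different chromosomes of GRCm38, all on the + strand, and each value covers the whole gene. *Col1a1* (ENSMUSG00000001506.9) spans chromosome 11 from 94936224 to 94953042, with up to 51 exons in a transcript. *Col1a2* (ENSMUSG00000029661.9) spans chromosome 6 from 4504814 to 4541544, with up to 52 exons. *Col3a1* (ENSMUSG00000026043.11) spans chromosome 1 from 45311538 to 45349706, with up to 51 exons. *Dcn* (ENSMUSG00000019929.8) spans chromosome 10 from 97479609 to 97518143, with up to 8 exons. These positions and exon counts are from GENCODE M21.

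All 4 genes had a higher mean in ILC3s from α-DR3-treated mice than in the PBS group. Levels are given as FPKM, the number of fragments scaled to transcript length and to the mapped fragments of a library, which allows genes of different length to be compared. The authors' mean of *Dcn* was 3.16 FPKM in PBS and 8.685 FPKM in α-DR3, a ratio of 2.75. *Dcn* thus had the highest level of the 4 in each group and also the highest ratio. For *Col3a1* the authors' mean was 1.225 FPKM in PBS and 3.06 FPKM in α-DR3, a ratio of 2.498. The authors' mean of *Col1a1* was 0.97 FPKM in PBS and 1.945 FPKM in α-DR3, a ratio of 2.01. *Col1a2* had 0.625 FPKM in PBS and 1.07 FPKM in α-DR3 as the authors' means, a ratio of 1.71. The order of the levels, *Dcn*, *Col3a1*, *Col1a1* and *Col1a2*, was the same in both groups, and the order of the ratios was the same again. Whether neighbours in this order differ beyond the spread of the libraries cannot be said from group means. In source data published with the study, the duplicate libraries of the treated group lay far apart for *Dcn*, so its treated mean is not a level that both libraries held, and the duplicate PBS libraries lay far apart for *Col1a1*.

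**Figure D1:**
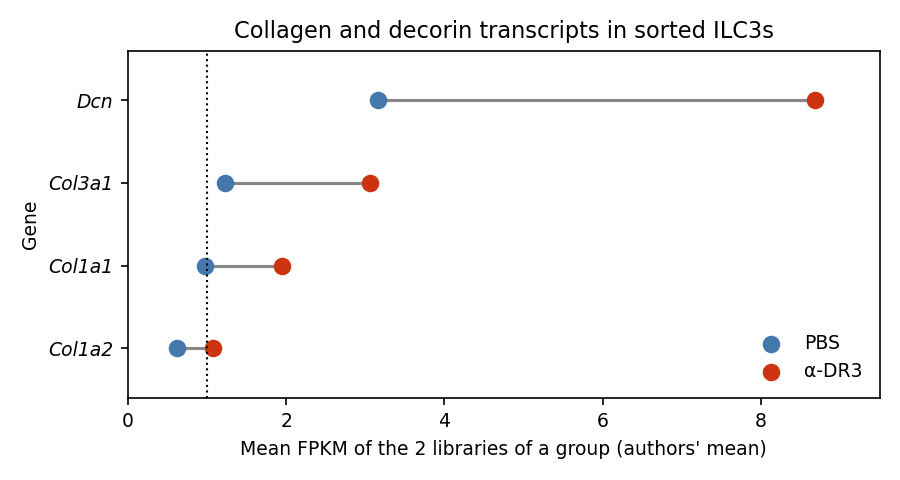
Authors' mean FPKM (x axis, linear) of the 4 genes (y axis) in PBS and α-DR3, each point being the mean of 2 libraries, with no error shown. The dotted line is at 1 FPKM, the level that 1 of the 2 group means had to exceed for a gene to be listed. *Dcn* moves from 3.16 to 8.685 FPKM, while *Col1a1* and *Col1a2* start below the line in PBS.

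The ratio of the 2 chains of type I collagen was read within each group. *Col1a1* had 1.55 times the FPKM of *Col1a2* in PBS and 1.82 times in α-DR3. *Col3a1* had 1.26 times the FPKM of *Col1a1* in PBS and 1.57 times in α-DR3. Both ratios rest on low means, and the PBS duplicates of *Col1a1* lay far apart, so no shift between the groups is read from them. Summed over the 4 genes the authors' means came to 5.98 FPKM in PBS and 14.76 FPKM in α-DR3, a ratio of 2.47. *Dcn* made up 52.8% of this sum in PBS and 58.8% in α-DR3. The 3 collagens without *Dcn* summed to 2.82 FPKM in PBS and 6.075 FPKM in α-DR3, a ratio of 2.15.

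These were small amounts of RNA. The median gene of the table had 9.865 FPKM in PBS and 9.935 FPKM in α-DR3, and 24.1% of all listed genes had a PBS mean below that of *Dcn*. *Col1a2* had a lower PBS mean than all but 6.65% of listed genes. The 4 genes made up 0.00549% of the summed FPKM of all listed genes in PBS and 0.00960% in α-DR3. *Il22*, with 17423.7 FPKM in PBS and 44536.6 FPKM in α-DR3, weighed heavily in this sum. On the scale of CPM, counts scaled to library size and not to length, the authors' mean over all libraries was 10.6 for *Dcn*, 11.6 for *Col3a1*, 5.98 for *Col1a1* and 4.35 for *Col1a2*, or 32.5 for the 4 together, so that on this scale *Col3a1* lay above *Dcn*. The depth of the libraries is unknown here, so these cannot be turned into numbers of fragments.

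All 4 genes had a ratio of at least 1.5, as did 37.1% of all listed genes. The paper's methods pair this limit with a limit on the FDR, which is not examined here, and with a mean above 5 FPKM in 1 of the groups, which *Dcn* had and the 3 collagens did not. A ratio of at least 2 was held by 3 of them, all but *Col1a2*, and by 20.5% of all listed genes. A mean higher in α-DR3 was found for 54.6% of all listed genes. According to the methods, a gene entered the table with a p under 0.05 and with at least 1 group mean above 1 FPKM, so each listed gene, these 4 included, had already been selected for a difference between the same libraries. A gene with a PBS mean of at most 1 FPKM could be listed only if its α-DR3 mean was above 1, and all 207 such genes (100%) were higher in α-DR3. *Col1a1* and *Col1a2* are 2 of these, so their direction was fixed by the listing. *Col3a1* and *Dcn* had PBS means above 1 FPKM and could have been listed in either direction. Of the 512 genes with a PBS mean over 1 and at most 5 FPKM, 56.1% were higher in α-DR3 and 48.8% had a ratio of at least 1.5.

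The median ratio of all listed genes was 1.31. It was 4.22 for genes with a PBS mean of at most 1 FPKM, among which *Col1a1* and *Col1a2* lay below the median, and 1.45 for genes with a PBS mean over 1 and at most 5 FPKM, among which *Col3a1* and *Dcn* lay above it. Relative to the median of the listed genes, the ratio was 2.10 for *Dcn*, 1.91 for *Col3a1*, 1.54 for *Col1a1* and 1.31 for *Col1a2*, so *Col1a2* no longer reached 1.5. A ratio higher than that of *Dcn* was found for 270 of the 2179 listed genes, higher than that of *Col3a1* for 315, higher than that of *Col1a1* for 443 and higher than that of *Col1a2* for 619. With 1 FPKM added to each mean, which damps the ratios of low genes, *Dcn* had a ratio of 2.33 and *Col3a1* of 1.82, whereas *Col1a1* had 1.495 and *Col1a2* 1.27.

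**Figure D2:**
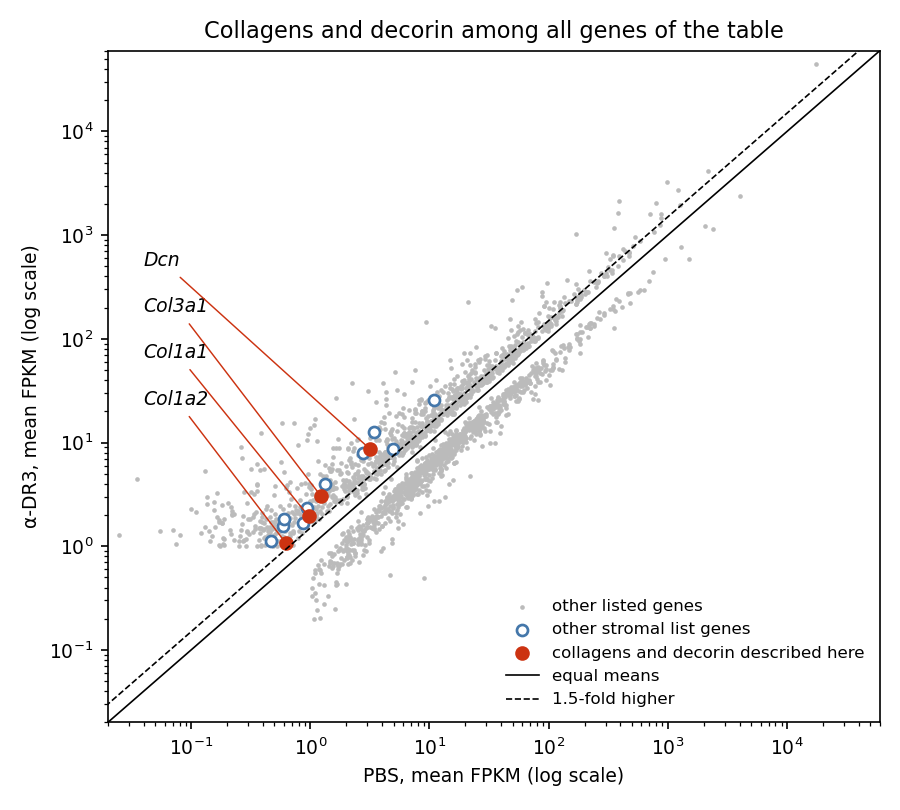
Authors' mean FPKM in PBS (x axis) and α-DR3 (y axis), both on log scales, of the listed genes with both means above 0, each point being 1 gene. The solid line marks equal means and the dashed line a ratio of 1.5. The 4 genes (red) lie at or above the dashed line in the lower left, with *Dcn* at 3.16 and 8.685 FPKM, and the other 10 listed genes of the stromal lists (open circles) lie on the same side.

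Other genes of the matrix and of fibroblasts were read from 4 lists, which hold 66 genes with the 4 above. The table lists 14 of the 66, and all 14 had a higher mean in α-DR3 and a ratio of at least 1.5, against 54.6% and 37.1% of all listed genes. The lists were written with earlier results of these data known, so this count is no independent evidence of a direction. Outside the lists, the metalloproteinase genes *Adam12*, with 16.135 FPKM in PBS and 7.77 FPKM in α-DR3, and *Adamts15*, with 5.565 and 3.205 FPKM, had lower means in α-DR3, while *Adamts14* (2.455 and 10.515 FPKM), *Adam9* (9.22 and 20.105 FPKM) and *Adam8* (57.52 and 122.235 FPKM) had higher ones. These 5 were picked after their values were seen. For 7 of the 14 the PBS mean was at most 1 FPKM and the direction was fixed by the listing. The other 7 were *Col3a1*, *Dcn*, *Plod2*, *Sparc*, *Igfbp4*, *Serping1* and *Igfbp7*. The 10 listed genes besides the 4 had a median ratio of 2.58, which gives no support for a direction, since 5 of them had a PBS mean of at most 1 FPKM. The other 52 genes are not in the table, and for these neither their level nor a difference is known here.

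Among collagens, 5 of 16 are listed. Besides the 3 described, these were *Col16a1*, a collagen associated with fibrils, with 0.935 FPKM in PBS and 2.355 FPKM in α-DR3, and *Col18a1*, a collagen of basement membranes, with 0.595 and 1.57 FPKM. The genes of types IV, V and VI collagen on the list were not listed in the table. Of 8 small leucine-rich proteoglycan genes, 2 are listed. *Lum*, which encodes lumican, a relative of decorin that also binds collagen fibrils, had 0.6 FPKM in PBS and 1.82 FPKM in α-DR3, a ratio of 3.03.

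Of 14 genes for the maturation of collagen, 3 are listed. *Sparc*, whose product is a collagen-binding matrix protein, had 2.75 FPKM in PBS and 7.875 FPKM in α-DR3, a ratio of 2.86. *Serpinh1*, the collagen chaperone HSP47, had 0.465 and 1.12 FPKM. *Plod2*, a lysyl hydroxylase that prepares collagen for crosslinking, had 4.93 and 8.72 FPKM, a ratio of 1.77. Its level in PBS was above that of *Dcn*, the highest of the 4 genes.

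Of 28 other genes of fibroblasts and matrix, 4 are listed. *Igfbp7*, an IGF-binding protein of the matrix, had the highest ratio of the stromal lists, 3.65, with 3.455 FPKM in PBS and 12.61 FPKM in α-DR3. *Serping1*, the C1 inhibitor of complement, had 1.32 and 3.965 FPKM, and *Postn*, the matrix protein periostin, had 0.865 and 1.66 FPKM. *Igfbp4*, another IGF-binding protein, had the highest level of the stromal lists, with 11.02 FPKM in PBS and 25.7 FPKM in α-DR3. Of 10 defining markers of fibroblasts, *Col1a1*, *Col1a2*, *Col3a1*, *Dcn* and *Lum* are listed, while *Pdgfra*, *Pdgfrb*, *Pdpn*, *Fbln1* and *Fn1* are not. The label of fibroblast transcripts thus rests on matrix genes, and the receptors that mark fibroblasts gave no value here. In bulk libraries, more cells of a type and more RNA per cell cannot be told apart.

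Genes of other cell types were read in the same way. Of 14 genes of macrophages, monocytes and dendritic cells, 7 are listed, and each had a higher mean in the α-DR3 group and a ratio of at least 1.5, against 54.6% and 37.1% of all listed genes. For 4 of the 7, *C1qa*, *C1qb*, *C1qc* and *Cd14*, the PBS mean was at most 1 FPKM and the direction was again fixed by the listing. Their ratios ran from 1.69 to 9.28, and their FPKM summed to 51.7 in PBS and 128.1 in α-DR3, or to 9.45 and 56.7 without *Zbtb46*, which carried most of the sum. *Lyz2*, the lysozyme of myeloid cells, had 4.085 FPKM in PBS and 37.91 FPKM in α-DR3, so its ratio of 9.28 was above that of *Dcn*. The lowest ratio of this list was that of *Zbtb46*, a transcription factor best known from dendritic cells, with 42.26 and 71.39 FPKM. Which of the sorted cells held its RNA was not examined. *Acta2*, the smooth muscle actin, was the 1 listed gene of 8 for smooth muscle and pericytes, with 0.615 and 1.39 FPKM. None of the 8 endothelial, 12 epithelial, 4 glial and 7 T and B cell genes of the lists is in the table, but other genes of such cells are. Chosen after the values were seen, they include the endothelial *Cldn5*, with 1.75 FPKM in PBS and 8.77 FPKM in α-DR3, and the B cell gene *Cd79b*, with 10.91 and 27.19 FPKM. Lower means in α-DR3 were found for *Cd72*, also known from B cells, with 172.29 and 99.945 FPKM. The same held for *Cd28*, known from T cells, with 20.46 and 8.77 FPKM. The epithelial genes *Lgals4*, with 12.395 and 5.275 FPKM, and *Muc3*, with 9.935 and 3.43 FPKM, had lower means in α-DR3, whereas *Cdh17*, *Ocln* and *Spint1*, which epithelia also express, had higher ones, from 1.01, 0.27 and 0.44 FPKM in PBS to 2.005, 1.115 and 1.39 FPKM. A lower mean was also found for *Esam*, another endothelial gene, with 6.565 and 3.005 FPKM. The hemoglobin gene *Hba-a2*, whose reads can be shared with a near-identical copy, had 24.545 and 82.555 FPKM. The antibodies of the lineage gate were directed to CD3, B220, CD11b and CD11c in the study's flow cytometry, which mark T cells, B cells and many myeloid cells. The part of these cells in the levels of the collagens and *Dcn* was not tested.

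The listed genes of ILC3s themselves were all at higher levels than the 4 genes. *Il22*, the signature cytokine of ILC3s, had 17423.7 FPKM in PBS and 44536.6 FPKM in α-DR3, a ratio of 2.56 that lies between those of *Col3a1* and *Dcn*. *Ncr1*, the receptor NKp46, had 460.2 and 279.0 FPKM, the lowest ratio of this list at 0.606. *Tnfrsf25*, which encodes DR3, had 114.5 and 140.1 FPKM. *Thy1* (162.8 and 268.3 FPKM), *Ccr6* (29.45 and 68.28 FPKM) and *Ahr* (10.74 and 16.0 FPKM) also lay above *Dcn* in both groups. Of 11 ILC3 genes 6 are listed, of which 5 were higher in α-DR3, against 54.6% of all listed genes, and 1, *Ncr1*, was lower.

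**Figure D3:**
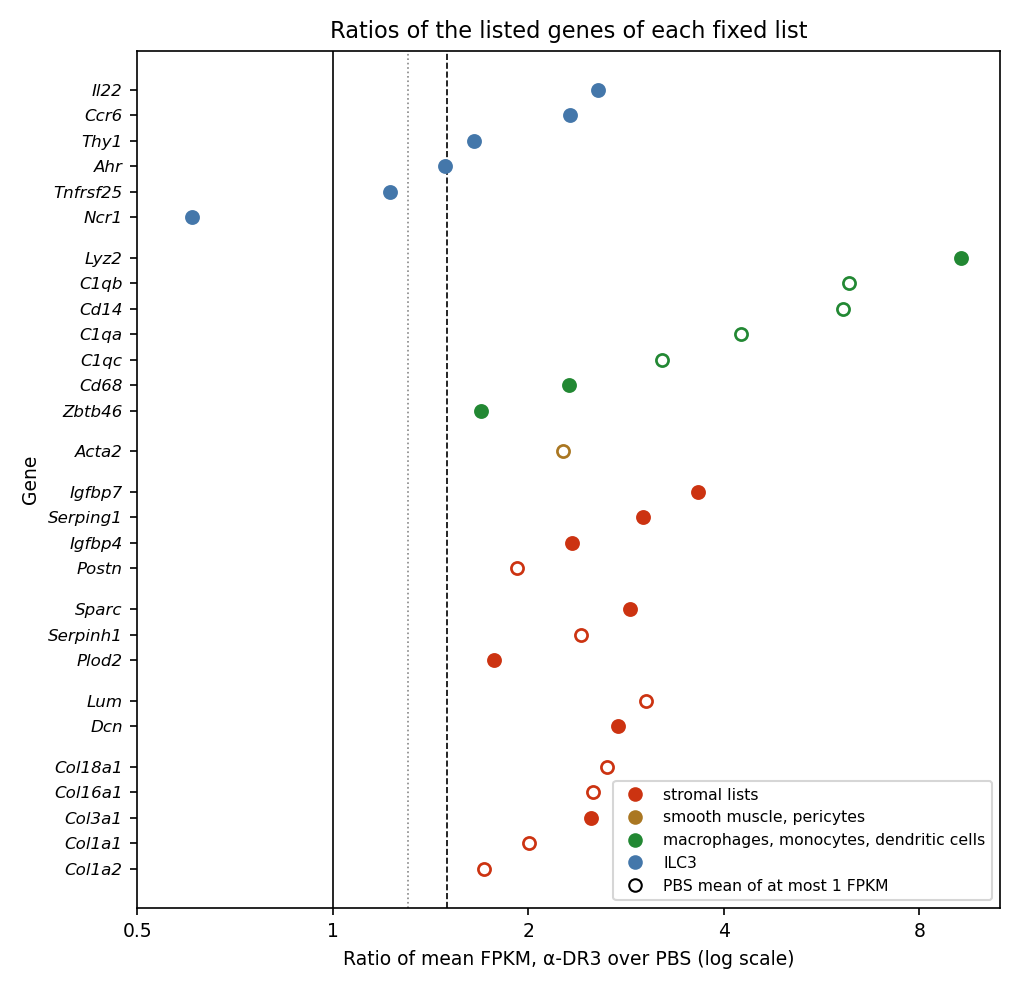
Ratio of the authors' mean FPKM, α-DR3 over PBS (x axis, log scale), of each listed gene (y axis) of the stromal, smooth muscle, myeloid and ILC3 lists. Open circles mark genes with a PBS mean of at most 1 FPKM, the solid line equal means, the dotted line the median of all listed genes at 1.31 and the dashed line 1.5. The 14 stromal genes lie between 1.71 and 3.65, the 7 myeloid genes between 1.69 and 9.28 and the 6 ILC3 genes between 0.606 and 2.56.

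Genes whose pair of group means lay nearest to each of the 4 were also found, by the distance between the log2 means of the 2 groups. The nearest to *Dcn* were *Trib1*, *Gramd4* and *Chst15*, at distances of 0.10, 0.11 and 0.13. *Wee1*, *Phldb1* and *Rap2a* lay nearest to *Col3a1*, at 0.08, 0.08 and 0.13. For *Col1a1* they were *Cdh17*, *Prkci* and *Lactb*, at 0.07, 0.11 and 0.12, and for *Col1a2* they were *Mn1*, *C1s* and *Lrrc16a*, at 0.10, 0.19 and 0.20. None of these 12 genes was on the stromal lists. Within a distance of 0.25 there were 4 genes for *Dcn*, 5 for *Col1a2*, 12 for *Col3a1* and 15 for *Col1a1*, and with 2 means per gene such likeness says little.

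For the sequence context of the collagens, the bases before the start sites that RefSeq gives are shown for *Col3a1* and *Col1a2*, on GRCm38.p6 and 5′ to 3′ on the + strand. Letters of 3 common promoter motifs were searched on both strands in the 250 bases before the start, and matches are in capitals. These were TATAAA of the TATA box, GGGCGG of the GC box and CCAAT. The *Col1a2* sequence stops before the earlier start that GENCODE gives to the transcript used above, and it lies downstream of the first annotated start of the gene, from which a shorter transcript begins:
Col3a1, chr1:45311288-45311537: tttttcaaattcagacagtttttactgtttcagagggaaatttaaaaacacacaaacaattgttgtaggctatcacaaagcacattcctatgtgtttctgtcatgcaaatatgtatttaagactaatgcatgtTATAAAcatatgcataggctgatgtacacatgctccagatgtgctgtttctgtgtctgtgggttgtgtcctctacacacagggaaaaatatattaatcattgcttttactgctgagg
Col1a2, chr6:4505368-4505492: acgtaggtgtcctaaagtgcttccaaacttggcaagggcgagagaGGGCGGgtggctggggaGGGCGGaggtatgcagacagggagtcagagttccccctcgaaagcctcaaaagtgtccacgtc
The *Col3a1* window held TATAAA at 1 place and neither of the other motifs, and 35.2% of its bases were G or C. The *Col1a2* window held GGGCGG at 2 places and CCAAT at 1 place beyond the bases shown, with 62% G or C. Of all 32851 promoters of the same length, 12.4% held TATAAA, 32.7% GGGCGG and 33.8% CCAAT, and the median share of G and C was 52.4%. A match of letters is a description of the sequence and not a site of binding.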

How the data were processed

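Per the paper's methods, the authors aligned paired-end reads of 50 bases from poly(A) RNA with STAR 2.5 (GRCm38.p5), estimated expression with RSEM 1.2 on a GENCODE annotation and used edgeR 3.18.1 for the comparison of groups. The deposited table has 2179 genes. Its columns of FPKM hold the authors' mean of the 2 libraries of each group, with the column named for wild type taken as PBS, and its log2 values are the authors' mean CPM over all libraries. The lowest value of the larger group mean was 1.005 FPKM. Its fold changes, likelihood ratios, p-values and FDR are the authors' own comparison and were not used. No column holds a single library, and from the paper's supplement no per-library value is given, only the remark that duplicates differed for *Dcn* and *Col1a1*, so no test was run and depth is unknown.

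Ratios of mean FPKM were computed without a pseudocount. The functions were tested on simulated data. The 4 genes and the lists were chosen with earlier results of these data known. One ILC3 gene was left out of its list and is not reported here. The text names the 4 genes, all listed genes of the stromal lists, the highest and lowest ratio of each other list with genes above *Dcn*, and the 3 nearest genes to each. Genes outside this rule were chosen after their values were seen. Other choices were pseudocounts of 0.1 and 1, a limit of 2, a mean FPKM over 5, and division by the median ratio or by the summed FPKM.

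Of the 2179 gene identifiers, 2149 were in GENCODE M21 (GRCm38), 187 of them with the same version. The gene lengths in the table differed from M21 (2604 against 5838 bases of exons for *Dcn*, and 7616 against 6563 for *Col1a1*), so they were not used to turn FPKM into fragments. Python 3.11.15, numpy 2.4.6, pandas 2.3.3 and matplotlib 3.10.9 were used.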

Additional observations from a re-analysis of the deposited data

How the results depend on the processing

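Of 16 alternatives of the single ratios, 5 fell below 1.5. None fell below 1, which a pseudocount cannot bring about and which says nothing of stability for *Col1a1* and *Col1a2*, whose direction the listing fixed. With a pseudocount of 0.1 the ratio was 2.69 for *Dcn*, 2.38 for *Col3a1*, 1.91 for *Col1a1* and 1.61 for *Col1a2*, and with a pseudocount of 1 it was 2.33, 1.82, 1.495 and 1.27. Divided by the median ratio of all listed genes it was 2.10, 1.91, 1.54 and 1.31, and as a share of the summed FPKM of all listed genes 1.95, 1.77, 1.42 and 1.21. The ratio of the summed FPKM of the 4 genes, 2.47, became 1.88, 1.89 and 1.75 under the last 3 of these settings and 2.15 without *Dcn*. The summed FPKM of all listed genes was 108959 in PBS and 153670 in α-DR3. Of these sums, *Il22* alone held 17423.7 and 44536.6 FPKM, so the shares lean heavily on a single gene. The number of the 4 genes at or over the limit was 3 with a limit of 2 or after division by the median ratio, 2 with a pseudocount of 1 and 1 where at least 1 group mean had to exceed 5 FPKM, a filter of the paper's methods that only *Dcn* passed. Of all listed genes, 808 were at or over 1.5, 446 at or over 2, 517 with the FPKM filter, 460 after division by the median ratio and 699 with a pseudocount of 1. The FPKM filter left 1638 of 2179 genes, of which 31.6% were at or over 1.5, against 37.1% without it.

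No paired analysis was possible because the table holds group means only, and no fit that leaves out a library was made. Counting error is unknown, and no spread between duplicates is given here, although duplicates are known to lie far apart for *Dcn* (treated) and *Col1a1* (PBS). *Col1a1* and *Col1a2*, with a mean CPM of 5.98 and 4.35, had the fewest counts of the 4 genes.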
